A study of Macaca fascicularis with 28 samples.

Results

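Keratins are the intermediate filament proteins of epithelial cells. This account covers the keratins KRT1, KRT4, KRT5, KRT7, KRT8, KRT9, KRT13, KRT16, KRT18 and KRT19, measured in macaque taste buds and in the lingual epithelium (LE) beside them. Probe sets were assigned by gene name alone: a probe set of the array counted if its gene name, from the supplementary gene table where given and otherwise from the array annotation, was on this list. The list itself was chosen with earlier results of these data known. The rule found 16 probe sets of 9 genes among 52024 probe sets, and no probe set carried the name KRT5. Another 28 keratin genes, with 36 probe sets, were also named on the array.

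A keratin filament is built from pairs of a type I and a type II keratin, and the pair in use changes with the kind of epithelium and with the depth of the cell in it. KRT5 and KRT14 mark the basal layer of stratified epithelia, KRT4 and KRT13 the suprabasal cells of moist linings such as tongue, mouth and esophagus, and KRT1 and KRT10 the suprabasal cells of keratinized surfaces. KRT7, KRT8, KRT18 and KRT19 belong to simple epithelia, and antibodies to several of them are used to outline taste buds. In the macaque RefSeq annotation T2T-MFA8v1.1 the type I genes lie in 1 cluster and the type II genes in another, except that KRT18, a type I gene, lies beside its partner KRT8 in the type II cluster.

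The 28 samples came from the tongues of 10 cynomolgus macaques with no treatment named. Material was cut out by laser capture microdissection, pooled over tissue sections, and its RNA amplified before hybridization to the Affymetrix Rhesus Macaque Genome Array. The first array set held 20 samples. All of animals 1 to 6 (females except animals 3 and 4, aged 2.6 to 4.5 years) gave taste buds of fungiform (FG) papillae, on the front of the tongue, and the LE around those papillae (LE at FG). Animals 1, 3, 4 and 5 (aged 2.6 to 4.0 years) also gave taste buds of circumvallate (CV) papillae, on the back of the tongue, and the LE around them (LE at CV). The second array set held 8 samples, the top and the bottom fraction of CV taste buds of 4 other animals, 7 to 10, all aged 3 years and female except animal 7. Fractions were compared only with each other, because tissue, animals and array set cannot be told apart between the sets. Values are intensities in arbitrary units. A probe set was tested if it reached 25 units in at least 4 samples of the fit, and a change was called where its adjusted p did not exceed 0.05 (limma with the animal as a block, Benjamini-Hochberg over all tested probe sets). Changes are differences of log2 intensities, given with their standard error. A fold given as "at least" has values under 25 raised to 25, and adjusted p-values beside it are those of the fit on unraised values.

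Labels and markers were checked first. The summed intensity of 8 taste cell markers (TRPM5, PLCB2, GNAT3, GNG13, ITPR3, PKD2L1, SNAP25 and ENTPD2) was 8661 to 19837 in the 18 taste bud samples and 195 to 331 in the 10 LE samples, where GNAT3 and SNAP25 stayed under 25 units. The sum of 14 markers of differentiated keratinocytes ran the other way, from 70715 to 116441 in LE and from 5442 to 22066 in taste buds. Involucrin (IVL), corneodesmosin (CDSN) and TMPRSS11E, 3 of those 14, stayed under 25 units in every taste bud sample. Of the 8 taste cell markers, 7 were called higher in CV and 7 in FG taste buds, beside 17.3% and 21.1% of all tested probe sets. In FG taste buds 1 of the 8 was called lower (-0.79), and in CV taste buds 1 was not called (-0.37). Over all probe sets, 49.0% of the calls in CV and 51.1% in FG taste buds were higher than in LE. With each array centred on its median these shares were 39.9% and 30.6%, since the median log2 intensity of tested probe sets was 0.22 higher in CV and 0.44 higher in FG taste buds than in their LE. That centring also took the share of higher calls from 76.7% to 52.3% between the epithelia, from 31.1% to 48.5% for the interaction, and from 53.4% to 41.1% for top against bottom. It changed no call of a keratin in taste buds against LE.

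Taste buds and LE held different keratins. KRT4 and KRT13 fell in both kinds of taste bud, KRT18 and KRT19 rose in both, KRT7 rose and KRT1 fell in FG taste buds, and KRT16 gave opposite answers with different probe sets. Of 13 keratin probe sets tested, 4 were higher and 3 lower in CV taste buds, and 5 were higher and 4 lower in FG taste buds. Over all 26176 tested probe sets, 17.3% were called higher and 18.0% lower in CV taste buds, and 21.1% higher and 20.2% lower in FG taste buds. Over the 13 the median log2 change was 0.81 for CV buds and 0.71 for FG buds, beside -0.08 and 0.05 over all tested probe sets. In bulk material a lower value can mean fewer cells of a type or less RNA per cell, and these cannot be told apart. The sum of salivary gland markers moved with the keratins that rose, at the FG site through AZGP1 alone. The summed intensity of LPO, MUC7, AZGP1 and PIP was 57.4 to 587 in LE, 885 to 2083 in FG and 3760 to 5673 in CV taste buds, without overlap. LPO and MUC7, a peroxidase and a mucin of saliva, were under 25 units in every sample. The 2 testable genes were both called higher in CV and 1 of them in FG taste buds, and the part of gland RNA in the keratin values was not tested.

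**Figure D1:**
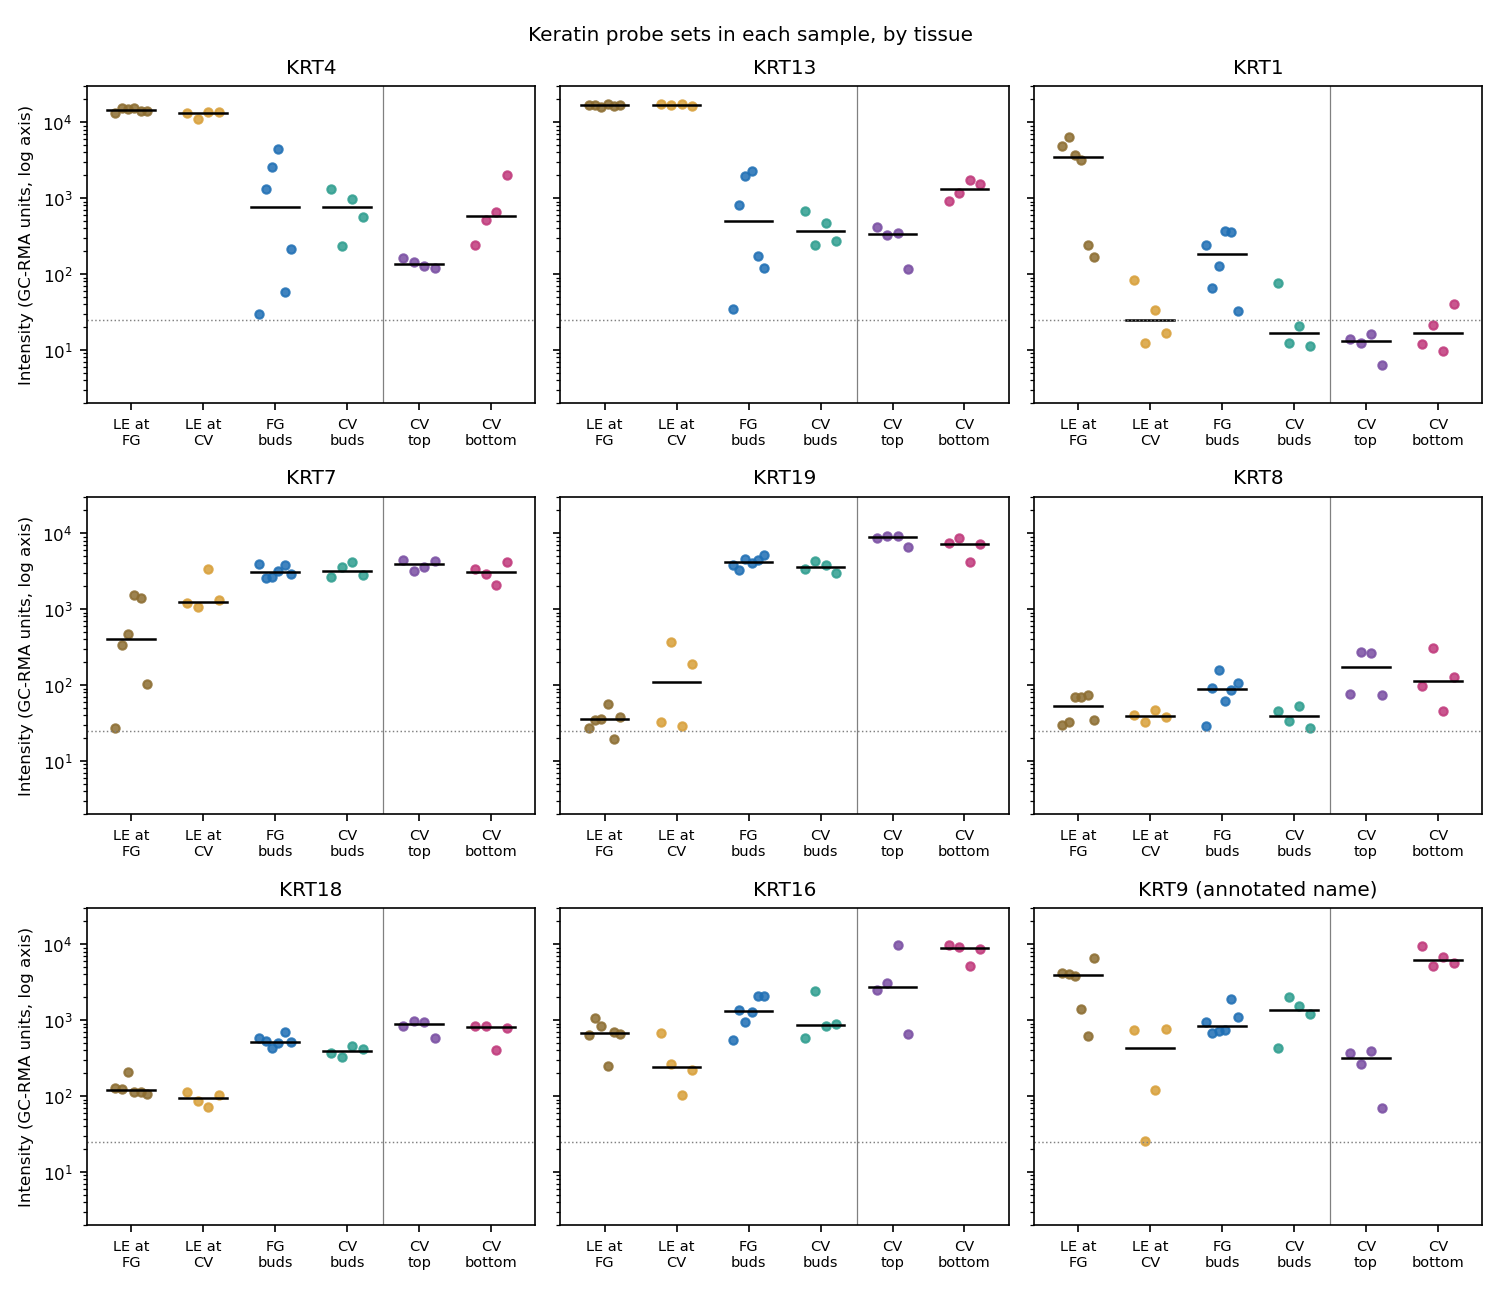
Intensity of the named probe set of each of 9 keratins (log axis) in every sample of LE at FG, LE at CV, FG taste buds, CV taste buds and both CV fractions (top, bottom). Points are samples, bars are group medians, the dotted line is 25 units, and the vertical line separates the array sets. KRT4 and KRT13 are at 11019 or more in all 10 LE samples, and KRT19 is at 3018 or more in all 18 taste bud samples.

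KRT13, the type I keratin of the lining epithelium, was even in LE and uneven in taste buds. In LE at FG its lowest, median and highest intensities were 15794, 16845 and 17175, and in LE at CV the 4 values were 17369, 16900, 17233 and 16227. In FG taste buds of animals 1 to 6 it was 35.1, 823, 1949, 2295, 173 and 120, and in CV taste buds of animals 1, 3, 4 and 5 it was 675, 244, 464 and 273. No taste bud sample reached the lowest LE sample, and FG taste buds alone spanned the whole range of the taste bud values. The log2 change was -5.48 ± 0.77 in FG taste buds (lower in 6 of 6 animals, adjusted p = 9.11e-05 by limma) and -5.48 ± 0.94 in CV taste buds (lower in 4 of 4 animals, adjusted p = 0.000508).

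KRT4, the type II partner of KRT13, followed the same course. LE at FG had 13334, 14548 and 15388 as its lowest, median and highest intensities, and LE at CV had 13039, 11019, 13793 and 13638. FG taste buds had 29.5, 1311, 2547, 4471, 57.3 and 215 in animals 1 to 6, and CV taste buds had 1304, 238, 973 and 573. As for KRT13, animals 2, 3 and 4 were the high FG taste buds and animals 1, 5 and 6 the low ones. KRT4 fell in FG taste buds by 5.11 ± 0.96 on the log2 scale (6 of 6 animals, adjusted p = 0.000954 by limma) and in CV taste buds by 4.31 ± 1.17 (4 of 4 animals, adjusted p = 0.0111).

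In FG taste buds the remaining KRT4 and KRT13 signal moved with other markers of differentiated keratinocytes. The summed marker intensity in FG taste buds was 5708, 8757, 10661, 22066, 6701 and 5442 in animals 1 to 6, so the same 3 animals were high. Across these 6 samples of 6 animals Pearson's r of log2 values was 0.959 between KRT13 and KRT4 (Spearman's rho 0.943), 0.854 between the marker sum and KRT13 (rho 0.943), and 0.831 between the marker sum and KRT4 (rho 0.829). Without the 2 samples farthest from the median on the first measure r was 0.903, 0.987 and 0.978. The samples share a capture and amplification each, and LE carried into the capture as a part of these values was not tested.

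**Figure D2:**
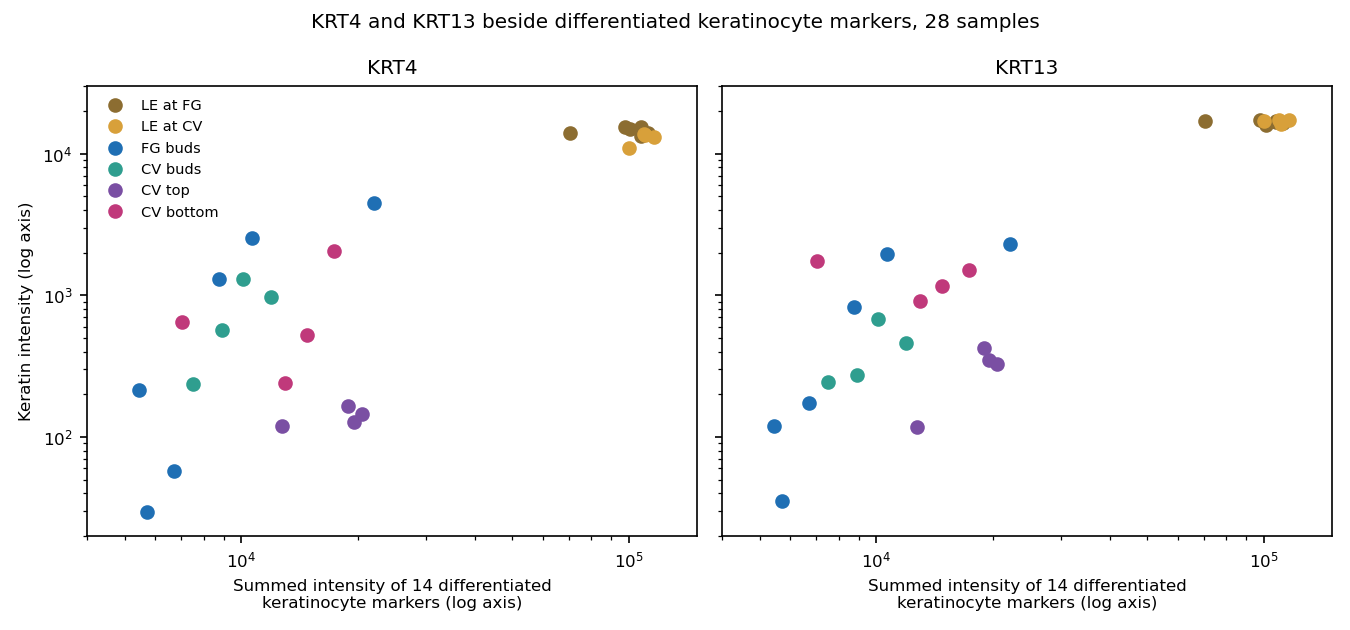
Intensity of KRT4 (left) and KRT13 (right) against the summed intensity of 14 differentiated keratinocyte markers, both on log axes, 1 point per sample in 6 tissue groups. LE samples sit at the upper right, with marker sums of 70715 or more. FG taste buds form a rising series, and the 4 top fractions lie low on KRT4 (120 to 165) at marker sums of 12765 to 20508.

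KRT1, a type II keratin of keratinized surfaces, was high in the LE at the front of the tongue. LE at FG gave 4831, 6312, 3696, 3209, 240 and 170 units in animals 1 to 6, and LE at CV gave 83.5, 12.2, 33.1 and 16.8 in animals 1, 3, 4 and 5. The LE groups did not overlap, and within LE at FG animals 5 and 6 lay far below the other four. FG taste buds held 241, 65.0, 126, 371, 361 and 32.7 units, and CV taste buds held 75.1, 12.3, 20.8 and 11.4. FG taste buds were lower than their LE in 5 of 6 animals, animal 5 being the exception. The log2 change was -3.45 ± 0.67 (adjusted p = 0.00126 by limma) and lost its call when both epithelia were pooled (-1.12 ± 1.39, adjusted p = 0.532) and with the methods' t-test after Benjamini-Hochberg (adjusted p = 0.112). CV taste buds and LE at CV were both dim, with a change of -0.34 ± 0.82 (adjusted p = 0.775).

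Among the 13 listed probe sets tested, KRT1 was the one called between the epithelia. LE at CV was lower than LE at FG by 6.39 ± 0.79 on the log2 scale, in 4 of 4 animals (adjusted p = 0.00145 by limma), where 0.294% of all tested probe sets were called lower and 0.970% higher. No other probe set had a log2 change below this one in that comparison. With values under 25 raised to 25, LE at FG was at least 43.2-fold higher. The markers of muscle, which lies under the epithelium, were also uneven there. The sum of MYH2 and CKM in LE at FG was 60.2, 113, 3679, 180, 307 and 26.1 in animals 1 to 6, and in LE at CV 18.7 to 48.4. The part of muscle in this result was not tested.

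KRT10, the type I partner of KRT1 and no member of the list, was far above 25 units in both epithelia by its named probe set. In LE at FG it was 2739, 5178, 6122, 6601, 2322 and 2000 in animals 1 to 6, and in LE at CV 1284, 1938, 2243 and 1139. LE at CV was lower in 4 of 4 animals, with a change of -1.34 that was not called (adjusted p = 0.0820 by limma). A second KRT10 probe set ran otherwise. In LE at FG it was lowest in animal 3 (7.89) and highest in animal 6 (346). Its change between the epithelia was 0.75 ± 1.06 (adjusted p = 0.748 by limma). KRT76, a type II keratin of keratinized oral surfaces, was high in LE at FG in animals 1, 2 and 3 (5463, 194 and 2354) and between 7.47 and 20.8 in the other 3 animals. By named probe sets, animals 5 and 6 had the lowest values for KRT1, KRT10 and KRT76, while animal 4 was low for KRT76 and high for KRT10. Over the 6 LE at FG samples Pearson's r of KRT1 with KRT10 was 0.760 (rho 0.486), and -0.466 without the 2 samples farthest in KRT1. For KRT1 with KRT76 these values were 0.741 (rho 0.771) and 0.271.

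**Figure D3:**
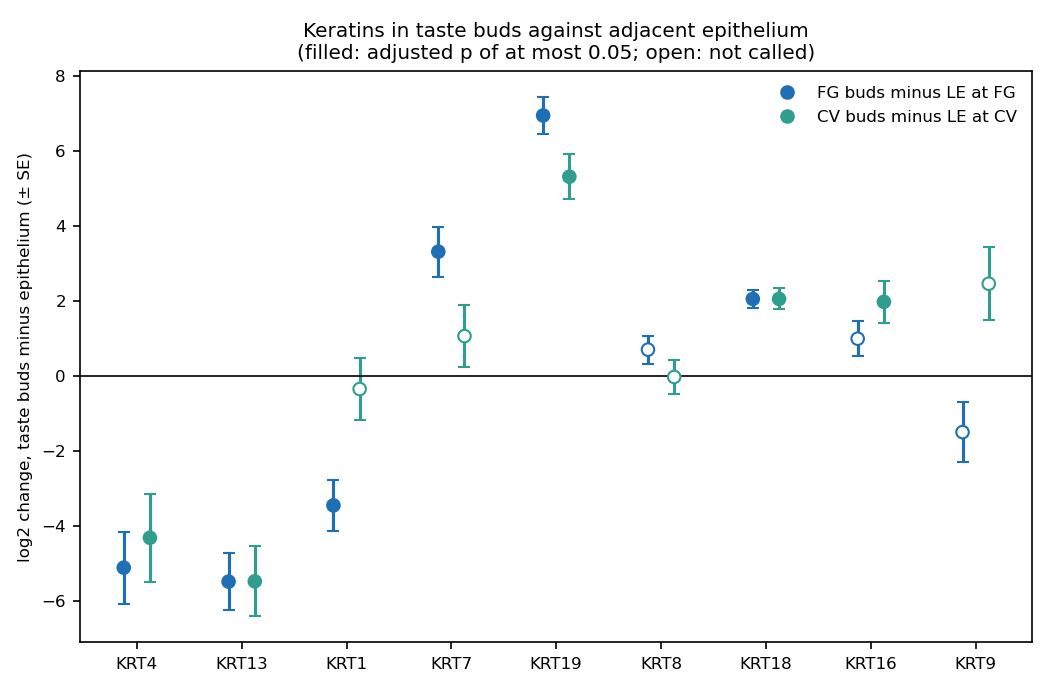
Log2 change of 9 keratins between taste buds and adjacent LE, FG in blue and CV in green, with bars of 1 standard error and filled points for called changes. KRT4 and KRT13 are lower and KRT18 and KRT19 higher at both sites. KRT1 and KRT7 are called at the FG site and KRT16 at the CV site, and no difference between the sites was called.

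KRT19, the type I keratin that lacks most of the tail domain, separated taste buds from LE with a wide gap. LE at FG had 27.5, 35.0, 35.7, 55.9, 19.7 and 38.0 units in animals 1 to 6, and LE at CV had 32.5, 373, 29.2 and 188. FG taste buds ranged from 3294 to 5171 with a median of 4227, and CV taste buds had 3388, 4365, 3789 and 3018. LE at CV of animals 3 and 5 stood above all LE at FG samples, yet every taste bud sample lay above every LE sample. The log2 change was 6.95 ± 0.49 in FG taste buds (6 of 6 animals, adjusted p = 1.22e-07 by limma) and 5.32 ± 0.60 in CV taste buds (4 of 4 animals, adjusted p = 1.47e-05). A second probe set of the same target gave 3.93 ± 0.31 and 2.98 ± 0.38, both called. The remaining one, which stayed at 26.7 units or less in CV taste buds and LE, rose in FG taste buds (2.40 ± 0.52, adjusted p = 0.00261) and was not called in CV taste buds (0.81 ± 0.64, adjusted p = 0.340).

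KRT18, the type I partner of KRT8, rose at both sites. LE at FG ranged from 106 to 206 units with a median of 119, and LE at CV had 113, 85.3, 71.8 and 105. FG taste buds ranged from 431 to 700 with a median of 520, and CV taste buds had 364, 322, 454 and 411. The groups did not overlap at either site. The log2 change was 2.06 ± 0.23 in FG (6 of 6 animals, adjusted p = 1.18e-05 by limma) and 2.06 ± 0.28 in CV taste buds (4 of 4 animals, adjusted p = 8.48e-05). The annotation gives this probe set several gene loci besides KRT18, and the study names it KRT18. The other 2 probe sets annotated KRT18 were at 3.44 to 27.3 units in all samples and were not tested.

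KRT8, the type II partner of KRT18, was not called at either site. Its probe set was dim everywhere in the first array set, at 29.7 to 74.1 units in LE at FG, 32.3 to 46.9 in LE at CV, 28.5 to 156 in FG taste buds and 27.3 to 53.7 in CV taste buds. The ranges overlapped in each comparison. The change was 0.71 ± 0.38 in FG (higher in 4 of 6 animals, adjusted p = 0.146 by limma) and -0.02 ± 0.46 in CV taste buds (higher in 3 of 4 animals, adjusted p = 0.975). A further probe set, which the annotation gives to KRT8 and other genes at once, was not counted as a member and not tested. It was at 25.3 to 88.1 units in LE at FG and 104 to 273 in FG taste buds, without overlap, and at 26.6 to 74.1 in LE at CV and 35.6 to 99.98 in CV taste buds, which overlapped.

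KRT7, a type II keratin of ducts and glands, was even in taste buds and uneven in LE. Taste buds had 2548 to 3929 units in FG papillae, and 2612, 3574, 4147 and 2790 in CV papillae. LE at FG had 27.1, 332, 469, 1522, 1420 and 105 in animals 1 to 6, and LE at CV had 1204, 1063, 3362 and 1300. LE at FG lay below all FG taste buds, while LE at CV of animal 4 lay within the range of CV taste buds. KRT7 rose in FG taste buds (3.32 ± 0.67, 6 of 6 animals, adjusted p = 0.00156 by limma). In CV taste buds it was higher in 4 of 4 animals but not called (1.07 ± 0.82, adjusted p = 0.328), whereas with both epithelia pooled its adjusted p was 0.0458. The difference between these changes was -2.25 ± 1.05, with the CV change below the FG change in 4 of 4 animals, and was not called (adjusted p = 0.336).

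KRT16 belongs to a set of keratins of injured and fast-renewing epithelia, and its probe sets disagreed. The named one of 3 was at 631, 1060, 845, 246, 702 and 648 units in LE at FG and at 551, 1361, 959, 1280, 2111 and 2068 in FG taste buds. In LE at CV it was at 687, 267, 103 and 223, and in CV taste buds at 580, 2405, 834 and 883. The group ranges overlapped at both sites. KRT16 rose in CV taste buds by this probe set (1.98 ± 0.57, 3 of 4 animals, adjusted p = 0.0146 by limma), and the change in FG taste buds was not called (1.00 ± 0.46, 5 of 6 animals, adjusted p = 0.0974). The CV call was lost without animal 3 (1.58, adjusted p = 0.0935), without animal 4 (1.64, adjusted p = 0.0897) and without animal 5 (1.98, adjusted p = 0.0554), and with the methods' t-test after Benjamini-Hochberg (adjusted p = 0.301). With both epithelia pooled the CV change was 1.38 (adjusted p = 0.0521) and the FG change 1.40 (adjusted p = 0.0235). Without animal 1 the FG change was 1.24 (adjusted p = 0.0256).

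A second KRT16 probe set pointed the other way. It lay at 25.4 to 491 units in LE at FG, 347 to 919 in LE at CV, 14.9 to 98.7 in FG taste buds and 12.6 to 166 in CV taste buds. It was called lower at both sites, by 2.40 ± 0.51 on the log2 scale in FG (5 of 6 animals, adjusted p = 0.00241 by limma) and by 3.73 ± 0.63 in CV taste buds (4 of 4 animals, adjusted p = 0.000458). The remaining one was lower without a call at either site (-0.95 ± 0.64, adjusted p = 0.251 in FG, and -1.77 ± 0.78, adjusted p = 0.0946 in CV). A further probe set, drawn from the same target as the named one, is annotated KRT16 but the study names it KRT17. It rose at both sites, by 2.53 (adjusted p = 0.0109) in FG and 2.65 (adjusted p = 0.0270) in CV taste buds. KRT16 and KRT17 are neighbouring genes of close sequence, and which transcript each probe set binds was not tested.

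**Figure D4:**
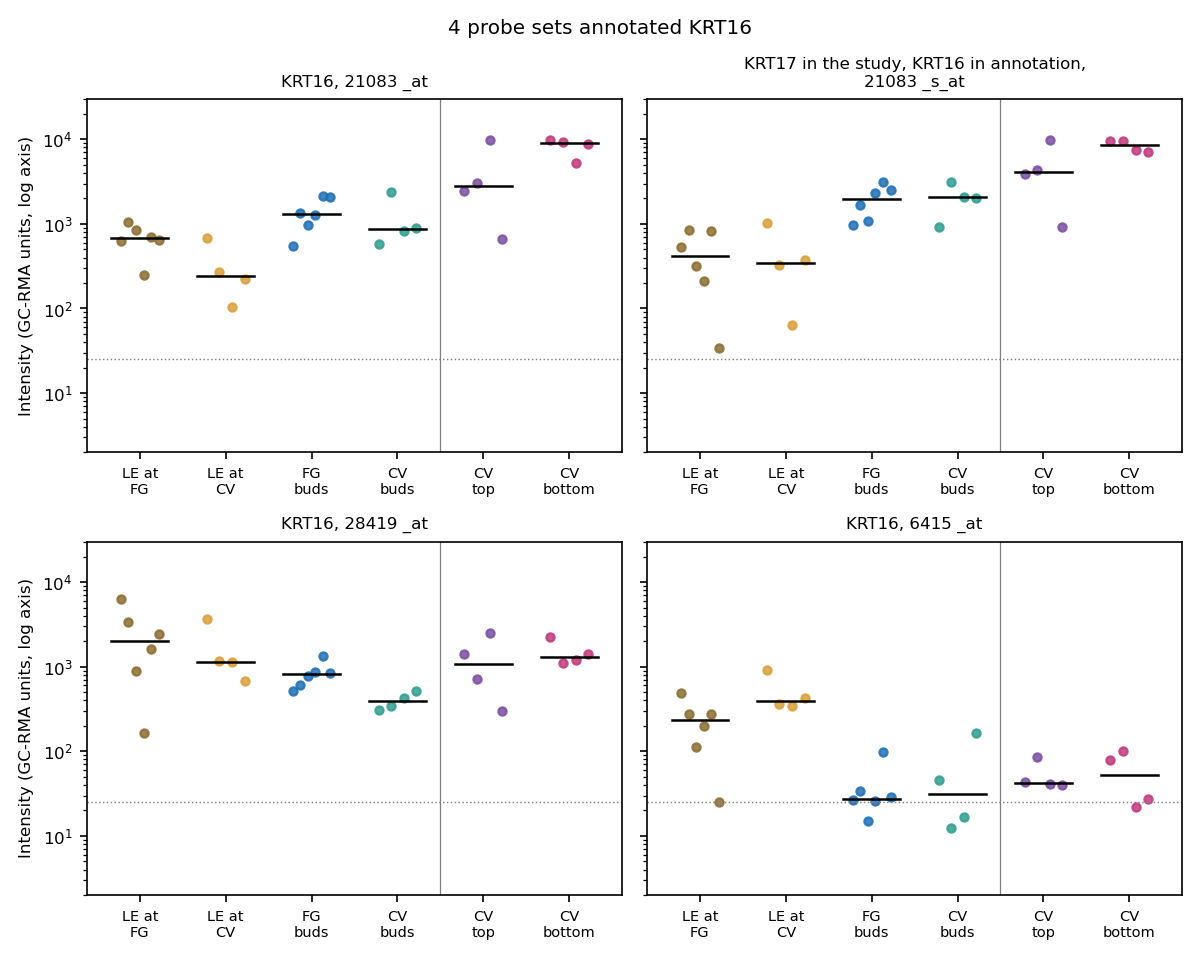
Intensity (log axis) of the 4 probe sets annotated KRT16 in every sample of 6 tissue groups, with group medians as bars and 25 units as a dotted line. The upper pair, drawn from the same target, has higher medians in taste buds than in LE and its highest in the bottom fractions, and the lower right probe set has its highest medians in LE. Intensities of different probe sets are not comparable as levels.

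The probe set annotated KRT9 needs its name qualified. KRT9 is the type I keratin of palms and soles, and KRT14, the basal keratin, is its neighbour in the type I cluster. By the ratio of its fraction means, this is the probe set that the study lists as KRT14, with no KRT9 listed. No probe set here carries the name KRT14, KRT15, KRT5 or KRT6A. A second probe set annotated KRT9 stayed between 3.32 and 9.06 units in all 28 samples. The bright probe set is called annotated KRT9 below.

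Annotated KRT9 was uneven in LE. In LE at FG it was 4219, 4113, 3761, 1387, 609 and 6496 in animals 1 to 6, in LE at CV 743, 25.9, 121 and 754, in FG taste buds 949, 677, 712, 737, 1907 and 1111, and in CV taste buds 432, 2042, 1553 and 1187. FG taste buds were lower than their LE in 5 of 6 animals and CV taste buds higher than theirs in 3 of 4. Neither change was called (-1.50 ± 0.80, adjusted p = 0.147, and 2.46 ± 0.98, adjusted p = 0.0635, by limma). The CV change passed the threshold without animal 1 (3.55, adjusted p = 0.0304) and without animal 5 (3.07, adjusted p = 0.0423). The difference between the changes was 3.96 ± 1.26 (adjusted p = 0.156), and LE at CV was lower than LE at FG by 3.50 ± 0.93 without a call (adjusted p = 0.0806).

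In LE at FG these values moved with markers of the basal layer, and in LE at CV they did not. The summed intensity of 7 basal keratinocyte markers (TP63, the integrins ITGA6 and ITGB4, COL17A1, the laminin chains LAMA3 and LAMB3, and CDH3) was 2909, 2588, 3915, 2125, 377 and 5161 in LE at FG of animals 1 to 6 and 898, 3102, 1370 and 1378 in LE at CV. COL17A1 stayed under 25 units in all LE samples. In LE at CV the highest basal sum, in animal 3, went with the lowest value of annotated KRT9. Pearson's r with annotated KRT9 over the 6 LE at FG samples was 0.925 (rho 0.829) and 0.711 without the 2 farthest samples. KRT7 ran against annotated KRT9 in the same 6 samples (r = -0.754, rho -0.886, and -0.917 without the 2 samples farthest in KRT7). No other pair of listed keratins was correlated within LE at FG, so these values describe a picked pair. In taste buds the basal sum was 5120 to 6473 in FG and 3741 to 5930 in CV papillae, and in each of these groups 6 of the 7 basal markers reached 25 units in every sample. By limma 4 of the 7 were called higher and 1 lower in FG taste buds than in LE, the lowest change being -2.71. In CV taste buds 5 were called higher and 0 lower, the lowest change being -1.21. Over all tested probe sets 21.1% were called higher and 20.2% lower in FG, and 17.3% and 18.0% in CV taste buds. How deep each LE capture reached is not given in the sources used here, and its part in these values was not tested.

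Between CV and FG taste buds no keratin probe set was called by limma, where 0.871% of all tested probe sets were. At an unadjusted p under 0.05 there were 4 of 13, beside 3042 of all 26176 tested probe sets. KRT1 was the lower of the pair at the CV site in 4 of 4 animals (-3.29 ± 0.79, adjusted p = 0.0711), with values of 11.4 to 75.1 against 32.7 to 371. Without animal 2 its adjusted p was 0.0306. KRT8 had a change of -1.07 ± 0.44 (adjusted p = 0.349). The other probe sets with an unadjusted p under 0.05 were those of KRT19 besides the named one, each lower at the CV site in 4 of 4 animals (-2.31 ± 0.61, adjusted p = 0.106, and -0.86 ± 0.37, adjusted p = 0.372). The named KRT19 probe set gave -0.18 ± 0.57 (adjusted p = 0.952). The methods' t-test on linear intensities gave 3 probe sets at an unadjusted p of at most 0.05 and 0 after Benjamini-Hochberg.

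The interaction, which is the CV change minus the FG change, gave no call for any of the 13 keratin probe sets by limma, beside 0.871% of all tested probe sets. At an unadjusted p under 0.05 there were 2 of 13, beside 3909 of all 26176 tested probe sets. These 2 were KRT1 (3.10 ± 1.06, adjusted p = 0.182) and annotated KRT9. KRT18 had an interaction of 0.00 ± 0.36 and KRT13 of 0.01 ± 1.21. The methods' t-test gave 2 probe sets at an unadjusted p of at most 0.05 and 0 after Benjamini-Hochberg.

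The top of a CV taste bud holds the ends of the taste cells that open to the pore, and its bottom holds the basal cells. Of 12 keratin probe sets tested there, 1 was called, annotated KRT9, which was lower in the top. Over all 21167 probe sets tested, 1.46% were called lower and 1.68% higher in the top. Annotated KRT9 was at 9333, 5134, 6833 and 5630 in the bottom of animals 7 to 10 and at 365, 261, 392 and 70.2 in the top. Every bottom sample lay above every top sample. The change was -4.86 ± 0.42 (4 of 4 animals, adjusted p = 0.0235 by limma). The call was lost without any single animal, with changes of -4.92, -5.04, -5.10 and -4.37 and adjusted p-values of 0.115, 0.135, 0.0770 and 0.0972 without animals 7, 8, 9 and 10.

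Summed intensities of other markers differed between the fractions as well. Bottom fractions had a basal keratinocyte sum of 6662 to 9153 against 4827 to 5096 in the top, a sum over 5 genes of dividing cells (MKI67, TOP2A, CCNB1, CDK1 and TYMS) of 890 to 2114 against 142 to 325, and a sum over 7 fibroblast genes of 3715 to 7600 against 546 to 655. The taste cell sum was 8661 to 11594 in the bottom and 16584 to 19837 in the top. The salivary gland sum was 1523 to 3390 in the bottom and 4616 to 6949 in the top. The sum of 4 leukocyte markers (PTPRC, CD14, CD68 and LCP1) was 954 to 2177 in the bottom and 2686 to 4334 in the top. By limma 0 of these 4 were called, 1 had an unadjusted p under 0.05, and their median log2 change was 0.082. Of the 2 salivary gland genes tested, 0 were called and 2 had an unadjusted p under 0.05. The part of all these marker groups in the keratin values was not tested.

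KRT13 and KRT4 were lower in the top in 4 of 4 animals with no overlap, but neither was called. KRT13 was at 909, 1157, 1738 and 1513 in the bottom and 422, 327, 351 and 117 in the top (-2.23 ± 0.44, adjusted p = 0.0532 by limma). KRT4 was at 241, 523, 651 and 2045 in the bottom and 165, 145, 128 and 120 in the top (-2.21 ± 0.56, adjusted p = 0.0900). For KRT13 an adjusted p under 0.05 was reached without the animal block (0.0226), with centred arrays (0.0499) and with 16 units added (0.0409). The differentiated keratinocyte sum did not run this way: it was 12941, 14800, 7010 and 17345 in the bottom of animals 7 to 10 and 18912, 20508, 19575 and 12765 in the top. Its single genes ran both ways. Of the 9 tested between the fractions by limma, 0 were called, with a median log2 change of 0.11 and a range from -1.17 to 1.03.

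No simple epithelial keratin was called between the fractions by limma. KRT19 was at 7498, 8677, 4144 and 7143 in the bottom and 8598, 9187, 9075 and 6487 in the top (0.32 ± 0.30, adjusted p = 0.611). KRT18 was at 828.5, 835, 403 and 794 in the bottom and 846, 962, 939 and 587 in the top (0.25 ± 0.33, adjusted p = 0.728). In both genes the bottom of animal 9 was the lowest fraction sample and the top of animal 10 the lowest top sample. KRT7 was at 3373, 2878, 2051 and 4164 in the bottom and 4464, 3190, 3630 and 4273 in the top, higher in the top in 4 of 4 animals by 0.35 ± 0.26 (adjusted p = 0.506). KRT8 was at 95.9, 306, 44.9 and 127 in the bottom and 77.2, 273, 267 and 74.7 in the top, with animal 9 alone higher in the top (0.33 ± 0.57, adjusted p = 0.794).

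KRT16 by its named probe set was at 9820, 9206, 5195 and 8732 in the bottom and 2475, 3069, 9703 and 656 in the top. It was lower in the top in 3 of 4 animals, and animal 9 ran the other way (-1.60 ± 0.70, adjusted p = 0.261). KRT1 had 1 fraction sample above 25 units, the bottom of animal 10 at 40.4, and was not tested.

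**Figure D5:**
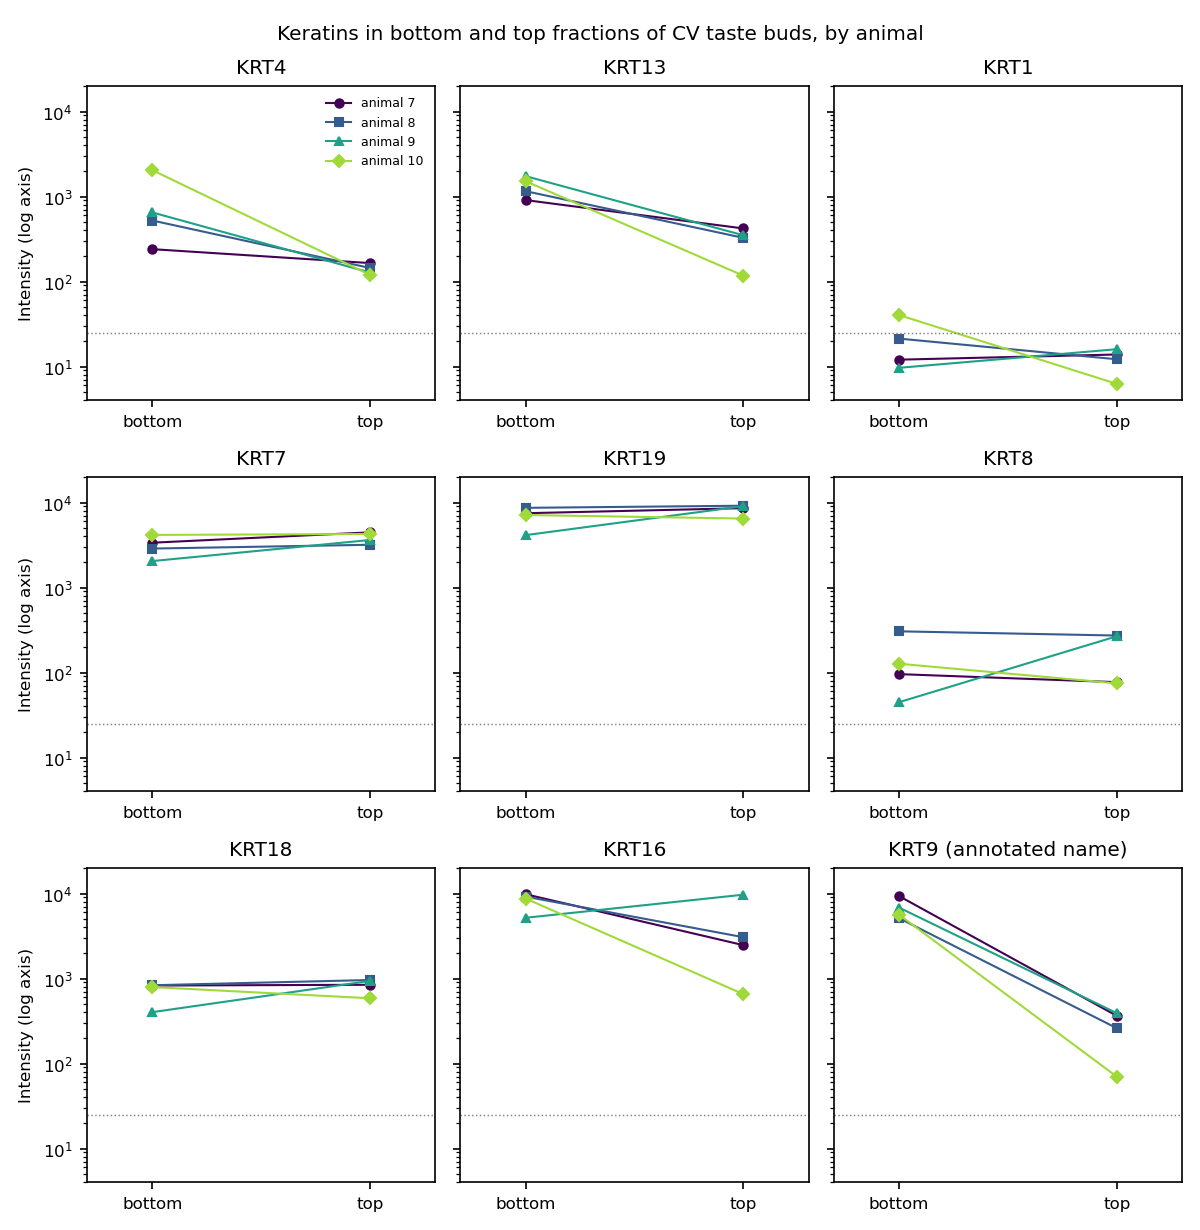
Intensity of 9 keratins (log axis) in bottom and top CV fractions, 1 line per animal for animals 7 to 10, with 25 units as a dotted line. Annotated KRT9 falls steeply from bottom to top in all 4 animals, KRT4 and KRT13 slope the same way, and KRT7, KRT18 and KRT19 rise from bottom to top in animal 9 (KRT19 from 4144 to 9075) with smaller steps in the other 3 animals.

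Among the other 28 keratins, 17 were tested in taste buds against LE. In CV taste buds 3 were higher and 8 lower, and in FG taste buds 3 were higher and 10 lower, with median changes of -1.45 and -1.25. The shares over all tested probe sets were 17.3% higher and 18.0% lower in CV, and 21.1% and 20.2% in FG taste buds. KRT20, a type I keratin of intestinal epithelium and Merkel cells, was under 25 units in every LE sample by its named probe set. It ranged from 1902 to 3348 in FG and from 870 to 1652 in CV taste buds. With LE values raised to 25 it was at least 106-fold higher in FG and at least 48.0-fold higher in CV taste buds. On unraised values it was called higher in FG (6 of 6 animals, adjusted p = 3.23e-11 by limma) and in CV taste buds (4 of 4 animals, adjusted p = 1.18e-09). A second KRT20 probe set, at 30.3 units in LE at CV of animal 1, was at least 13.4-fold higher in FG and 9.59-fold higher in CV taste buds, both called. The other keratins with the largest called changes, KRT78, KRT35, KRT36, KRT80 and KRT76, were lower in taste buds in at least 1 kind of papilla. KRT78, a type II keratin, fell by 6.22 ± 0.42 in FG taste buds and fell by 5.70 ± 0.51 in CV taste buds, where 2 and 1 of the values were under 25 units (adjusted p = 8.18e-08 and 2.16e-06 by limma). The hair keratin KRT35 was under 25 units in every taste bud sample and at least 19.3-fold lower in FG and 15.2-fold lower in CV taste buds than in LE (adjusted p = 8.28e-06 and 3.78e-05). KRT36, another hair keratin, fell in FG taste buds (-2.78 ± 0.74) and was at least 10.3-fold lower in CV taste buds, all of which were under 25 units. KRT80 fell at both sites (-2.53 ± 0.55 in FG and -3.77 ± 0.68 in CV). KRT76 fell in FG taste buds (-3.33 ± 1.15, adjusted p = 0.0323) and was not called in CV taste buds (-1.72 ± 1.41, adjusted p = 0.363), with no call for the difference between these changes (adjusted p = 0.727). Of the FG taste bud values 5 of 6 were under 25 units, and so was LE at FG of animals 4, 5 and 6 (20.8, 7.47 and 10.15). With values under 25 raised to 25, KRT76 was 6.87-fold lower in FG taste buds. By named probe set, none of the 9 other keratins tested between the fractions was called by limma, and 2 had an unadjusted p under 0.05. Among all 21167 probe sets tested there, 4375 had one.

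Of 16 gene symbols listed for proteins that tie keratin filaments to junctions or to each other, 10 were tested. In each kind of taste bud 4 were higher and 5 lower, with a median change of -1.54 for CV buds and -1.06 for FG buds. Over all tested probe sets 17.3% were higher and 18.0% lower in CV taste buds, and 21.1% and 20.2% in FG taste buds. PKP1, a plaque protein of desmosomes in stratified epithelia, fell at both sites, the CV change being -5.76 ± 0.58 and the FG change -5.74 ± 0.47 (adjusted p = 5.77e-06 and 6.18e-07 by limma). Of its taste bud values 2 of 4 in CV and 5 of 6 in FG were under 25 units. With these raised to 25, PKP1 was at least 46.2-fold lower in CV and 34.3-fold lower in FG taste buds. Trichohyalin (TCHH), a keratin-bundling protein of hair follicles and tongue papillae, was at least 56.5-fold lower in CV taste buds, where 3 of 4 values were under 25 units (adjusted p = 0.00551), and in FG taste buds the change was -1.56 ± 1.26 (adjusted p = 0.340). The difference between these changes was not called (-4.87 ± 2.00, adjusted p = 0.266). TCHH in FG taste buds of animals 1 to 6 was at 5.20, 1025, 1015, 1920, 7.70 and 200, so that animals 2, 3 and 4 were the high ones, as for KRT4 and KRT13. Dystonin (DST), which holds filaments at hemidesmosomes, rose by 4.76 ± 0.87 in CV and 3.87 ± 0.71 in FG taste buds (adjusted p = 0.000817 and 0.000821), and epiplakin (EPPK1) rose by 3.79 ± 0.77 and 4.59 ± 0.63. None of the 10 was called between CV and FG taste buds, between the epithelia or between the fractions by limma, and 2, 1 and 1 had an unadjusted p under 0.05. Over all tested probe sets, 3042 of 26176, 4474 of 26176 and 4375 of 21167 had one.

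Genes with the most similar profiles were sought among 11077 named genes, by Pearson's r of log2 intensities over all 28 samples. The listed keratins were left out of this search, and each gene entered by its brightest probe set alone. These values describe the series and carry the split between LE and taste buds and between array sets. KRT4 and KRT13 were nearest to genes of differentiated keratinocytes, KRT4 to SPRR3 (0.966), CRNN (0.959) and CSTA (0.956), and KRT13 to CSTA (0.974), MALL (0.949) and SPRR3 (0.944). KRT19 was nearest to CXCL14 (0.973), C1orf115 (0.972) and KCNE3 (0.970), and KRT18 to FOXA2 (0.965), LOC699035 (0.956) and C5orf32 (0.955). KRT7 was nearest to IFT25 (0.873), HSPH1 (0.837) and PLAC8 (0.835), and KRT8 to PLPP2 (0.827), CREB3 (0.803) and EID1 (0.793). KRT16 was nearest to the probe set named KRT17 (0.872), MEIS3 (0.861) and LOC718777 (0.850), and KRT1 to CSF3 (0.844), TLX1 (0.830) and LOC701497 (0.829). Annotated KRT9 had the lowest nearest values in this search, with H19 at 0.739, KIF23 at 0.663 and BDKRB1 at 0.647. A KRT3 probe set that did not enter the search, since another of that gene was brighter, had r = 0.791 with it. Among pairs of the list, KRT13 with KRT4 had r = 0.957, KRT7 with KRT19 0.718 and KRT8 with KRT18 0.625 over the same 28 samples.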

How the data were processed

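The authors deposited 1 table of intensities for 52024 probe sets in 28 samples. Per the labels and the methods, the authors made these intensities with GC-RMA, which corrects background and normalizes by quantiles, over all 28 arrays together. The sources used here give no software version. The values are on a linear scale and were log2 transformed here. Probe sets were named by the supplementary gene table of the study (1997 probe sets) and otherwise by the array annotation, which gives 24956 probe sets 1 gene, 361 several and 26707 none. The study's list of bottom fraction genes has no probe identifiers, so its KRT14 entry was matched by the ratio of group means, which 1 probe set fitted. A gene is represented by the probe set in the study's table, otherwise by its brightest one, and every probe set of a member that passed the filter was tested. The members and lists were chosen with earlier results of these data known. A gene of the basal marker list is not reported here and enters no sum. Named genes beyond the members were, by rule, up to 6 other keratins and 4 filament linkers with the largest called changes.

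Linear models were fitted with limma 3.58.1 in R 4.3.3, 1 for the 4 tissues of the first array set (20 samples) and 1 for top and bottom fractions (8 samples), each with the animal as a fixed block. Tested probe sets reached 25 units in at least 4 samples of the fit, and the Benjamini-Hochberg adjustment ran over all of them. Both models were tested on simulated data with known changes. Same-numbered animals come from the labels. The mean correlation of deviations from group means was 0.05 to 0.12 within and -0.04 to -0.01 between animals. Alternatives were no block, raised or shifted low values, no filter, centred arrays, pooled epithelia, only the 4 animals with all 4 tissues, each animal left out and the methods' paired t-test. The number of animals and dim signal limit precision. Between 37.3% and 40.8% of probe sets reached 25 units per array, and no arrays were identical. The sources used here state no separate captures within an animal, so the spread within an animal is unknown.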

Additional observations from a re-analysis of the deposited data

Results flagged for a closer look

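Of 54 combinations of keratin and tissue group, 3 held a sample far from the others of its group by Dixon's test on log2 values, about as many as chance flags (1 in 20 groups). KRT16 in LE at FG was 246 in animal 4 against 631 to 1060 in the other 5 animals. KRT18 in LE at FG was 206 in animal 3 against 106 to 128, and that sample also had the highest muscle and fibroblast marker sums of its group (3679 and 4844). KRT18 in the bottom fraction was 403 in animal 9 against 794 to 835. The bottom fraction of animal 9 also had the lowest KRT19, KRT7 and KRT16 of its group.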

How the results depend on the processing

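Counts of keratin probe sets called were recomputed under 1 change of setting at a time. Against LE, the 7 calls in CV taste buds became 3 with the methods' t-test after Benjamini-Hochberg and 6 to 9 with 1 animal left out, and the 9 calls in FG taste buds stayed within 1.5 times under every alternative run (9 to 10 with 1 animal left out). The animal pairing came from the labels. Without the replicate block there was 1 call instead of 0 between CV and FG taste buds, 2 instead of 1 between the epithelia and 2 instead of 1 between top and bottom, and 8 instead of 7 in CV taste buds. Between CV and FG taste buds there was also 1 call with values under 25 raised to 25, 3 with the t-test unadjusted and 0 to 1 with 1 animal left out (1 without animal 1 or without animal 2). Between the epithelia the t-test after adjustment gave 0. For the interaction the t-test unadjusted gave 2. Between top and bottom there were 2 calls with centred arrays, 2 with 16 units added, 2 with the t-test unadjusted, 0 with it adjusted and 0 with any 1 animal left out. With another probe set in its place, the KRT16 change in CV taste buds turned to -1.77 or -3.73, and that in FG taste buds to -2.40. KRT4, KRT13 and KRT19 in both kinds of taste bud and KRT7 in FG taste buds remained called under all 14 alternatives. KRT18 in CV taste buds missed with the adjusted t-test (adjusted p = 0.0575). The cause of these differences was not tested. Comparisons at the CV site and in the fractions rested on 4 animals each. KRT8 and KRT1 lay near or under 25 units in several groups.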

Other observations

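The 3 probe sets named KRT3, a type II keratin of the cornea, gave different profiles, noticed after the values were seen. One was at 1043 to 10250 in LE at FG, 308 to 1132 in LE at CV, 537 to 3947 in top and 8206 to 9781 in bottom fractions. Over all 28 samples its Pearson's r with annotated KRT9 was 0.791 (rho 0.842) and 0.808 without the 2 samples farthest from the median of annotated KRT9. It was called higher in CV taste buds than in LE (2.38 ± 0.57, adjusted p = 0.00534 by limma), lower in LE at CV than in LE at FG (-2.60 ± 0.55, adjusted p = 0.0362) and lower in top than in bottom fractions (-2.45 ± 0.46, adjusted p = 0.0480), in 4 of 4 animals each. The named KRT3 probe set was at 6368 to 10438 in LE at FG and 4893 to 7649 in LE at CV, and its top and bottom ranges overlapped (2066 to 5716 and 3107 to 6038). The remaining one was under 25 units in all taste bud samples. Which transcript each binds was not tested.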
